A study of Mus musculus with 6 samples.

Results

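The genes of the SR proteins and of the heterogeneous nuclear ribonucleoproteins (hnRNPs) were taken from the liver expression table by symbol: every row named Srsf followed by a number, and every row whose name starts with Hnrnp and a letter, pseudogenes left out. Of 24411 rows, 31 fit, 11 of them Srsf and 20 Hnrnp. A mean of at least 0.5 TPM (a level of transcripts scaled by their length and by the library's total) over the 6 libraries was reached by 30, all but Srsf12, which was listed at 0 in 4 libraries and at 0.05 TPM in control replicate 2 and Sox9 cKO replicate 1. Within this rule by symbol the measured values did not choose the genes beyond that level. The families themselves were chosen with earlier results of these data known. Liver mRNA was sequenced from 3 samples labelled WT (the control group) and 3 labelled Alb-Cre+/+;Sox9 flox/flox (the Sox9 cKO group, here also the knockout livers), in which a Cre recombinase under the albumin promoter removes floxed Sox9 in liver epithelial cells, that is hepatocytes and bile duct cells. The labels give neither age nor sex, and no floxed allele or Cre for the controls, so that effects of Cre, of the floxed background and of Sox9 loss cannot be told apart.

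Splicing removes introns from nascent transcripts, and the choice of exons depends on proteins that bind the RNA beside the splice sites. SR proteins carry RNA recognition motifs and a domain rich in arginine and serine, bind enhancer sequences in exons and help the spliceosome to recognise the exon. hnRNPs coat the nascent transcript and often act against SR proteins by blocking exon use, and many of both families also serve mRNA export, stability and translation. Many SR and hnRNP genes restrain their own level by splicing their transcripts into forms that nonsense-mediated decay destroys. In mice, deletion of Srsf3 in hepatocytes disturbs hepatocyte differentiation and metabolism.

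The 250 bases before the annotated start are shown for 4 members, chosen with their values known: in each family the gene with the smallest adjusted p (Srsf5 and Hnrnpul1) and one whose groups overlapped (Srsf9 and Hnrnpc). They come from RefSeq on build GRCm38.p6, written 5′ to 3′ on the gene's strand: Srsf5 at chr12:80945249-80945498, plus strand; Srsf9 at chr5:115326927-115327176, plus strand; Hnrnpul1 at chr7:25754760-25755009, minus strand; and Hnrnpc at chr14:52104022-52104271, minus strand. Capitals mark exact matches on either strand to 5 motifs searched by letters, the CCAAT box (CCAAT), the GC box (GGGCGG), the core of ETS factor sites (CCGGAAG), the core of cyclic AMP response elements (TGACGT) and the TATA box (TATAAA).
Srsf5: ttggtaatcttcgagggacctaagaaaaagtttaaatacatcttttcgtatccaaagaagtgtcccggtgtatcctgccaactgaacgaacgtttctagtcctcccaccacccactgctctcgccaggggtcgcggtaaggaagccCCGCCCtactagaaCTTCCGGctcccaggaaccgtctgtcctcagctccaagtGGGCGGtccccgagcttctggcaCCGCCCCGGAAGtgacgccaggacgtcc
Srsf9: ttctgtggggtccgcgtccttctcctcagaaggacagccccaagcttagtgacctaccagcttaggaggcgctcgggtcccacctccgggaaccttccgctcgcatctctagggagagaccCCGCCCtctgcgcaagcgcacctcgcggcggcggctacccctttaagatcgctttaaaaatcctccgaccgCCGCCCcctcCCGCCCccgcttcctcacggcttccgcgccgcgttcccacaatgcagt
Hnrnpul1: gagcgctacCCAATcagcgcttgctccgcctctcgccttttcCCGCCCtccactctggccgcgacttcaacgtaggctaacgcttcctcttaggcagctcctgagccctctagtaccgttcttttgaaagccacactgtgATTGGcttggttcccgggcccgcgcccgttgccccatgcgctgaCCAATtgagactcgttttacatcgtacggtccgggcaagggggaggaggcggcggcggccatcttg
Hnrnpc: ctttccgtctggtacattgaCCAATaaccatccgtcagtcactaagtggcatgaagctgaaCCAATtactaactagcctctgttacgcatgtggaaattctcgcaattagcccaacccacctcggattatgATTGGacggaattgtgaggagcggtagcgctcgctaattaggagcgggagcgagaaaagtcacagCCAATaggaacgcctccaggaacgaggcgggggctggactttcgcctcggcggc

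The Srsf5 window held 3 GC boxes and 2 ETS cores, and 1 of the GC boxes overlapped an ETS core. The Srsf9 window held 3 GC boxes, the Hnrnpul1 window 3 CCAAT boxes and 1 GC box, and the Hnrnpc window 4 CCAAT boxes. RefSeq windows were found for 28 of the 30 genes, and 1 window per gene, the one farthest upstream, was counted. A CCAAT box was present in 12 of 18 Hnrnp windows (66.7%) and 3 of 10 Srsf windows (30%), against 36.8% of 9524 tested genes and 34.5% of all RefSeq genes. A GC box was present in 9 of 10 Srsf windows (90%) and 13 of 18 Hnrnp windows (72.2%), against 57.7% of tested genes and 33% of all. ETS cores were in 4 of 10 Srsf (40%) and 2 of 18 Hnrnp windows (11.1%), against 13.9% of tested genes and 7.07% of all. The cyclic AMP element core was in 3 Srsf (30%) and 4 Hnrnp windows (22.2%), against 10.1% and 6.52%. A TATA box was in 2 Srsf (20%) and 1 Hnrnp window (5.56%), against 6.75% and 13%. These are matches of letters and show no binding.

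Hepatocyte markers led all libraries. Over 9 of 10 listed genes that had a row they summed to 149384 to 163754 TPM in the control livers and 127993 to 138117 TPM in the knockout livers. Alb led this sum, with means of 106683 TPM in the control livers and 78273 TPM in the knockout livers (limma adjusted p = 0.33). The list median log2 fold change was -0.09, with 5 of the 9 genes below 0. In limma 0 of the 9 were called, against 9.59% of all tested genes. Sox9 was at 1.69, 1.43 and 1.43 TPM in the control livers and 0.19, 0.40 and 0.68 TPM in the knockout livers, lower in every Sox9 cKO library (log2 fold change -1.16, SE 0.25, limma adjusted p = 0.0323). The Sox9 call was lost in 10 of 17 alternatives, among them median centring (limma adjusted p = 0.0941), and its adjusted p ran from 0.0055 to 0.359. Control replicates 1 and 2 expressed Xist (114 and 123 TPM) and the other 4 libraries expressed the Y-linked Eif2s3y (47.6 to 51.6 TPM), so the sexes were not balanced between the groups. Over all 12539 tested genes the median log2 fold change was -0.24, a shift against which every value here has to be read. The labels do not say that each library is a separate animal, so the p-values cover only the spread among these 6 samples, which may be technical.

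No SR or hnRNP gene passed the test. In limma, with p-values adjusted over all tested genes, 0 of 10 Srsf and 0 of 20 Hnrnp genes reached an adjusted p under 0.05 in either direction, while 9.59% of all tested genes did (8.76% lower and 0.821% higher). At an unadjusted p under 0.05 there were 2 Srsf and 5 Hnrnp genes, all lower in the knockout livers. These 7 of 30 are 23.3%, against 29.8% of all tested genes and 25.3% of those with a mean of at least 5 TPM, the range in which every tested member lies. The median log2 fold change was -0.23 for Srsf and -0.25 for Hnrnp genes. It was -0.24 for all tested genes and -0.16 for those with a mean of at least 5 TPM. After each library was centred on its median the families were at 0.05 and 0.03. All tested genes were then at 0.04 and those of at least 5 TPM at 0.11. The sign of both family medians therefore depended on the scaling. Fold changes below 0 were found for 8 of 10 Srsf and 17 of 20 Hnrnp genes before centring, and for 3 and 8 after it. The shares before and after it were 77.3% and 46% over all tested genes, and 72.5% and 35.9% at 5 TPM or more. With array weights, which give noisier libraries less weight, limma called Srsf4, Hnrnpf, Hnrnpll, Hnrnpr and Hnrnpul1 lower, 5 of the 30 genes, when 18.4% of all tested genes were called lower.

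**Figure D1:**
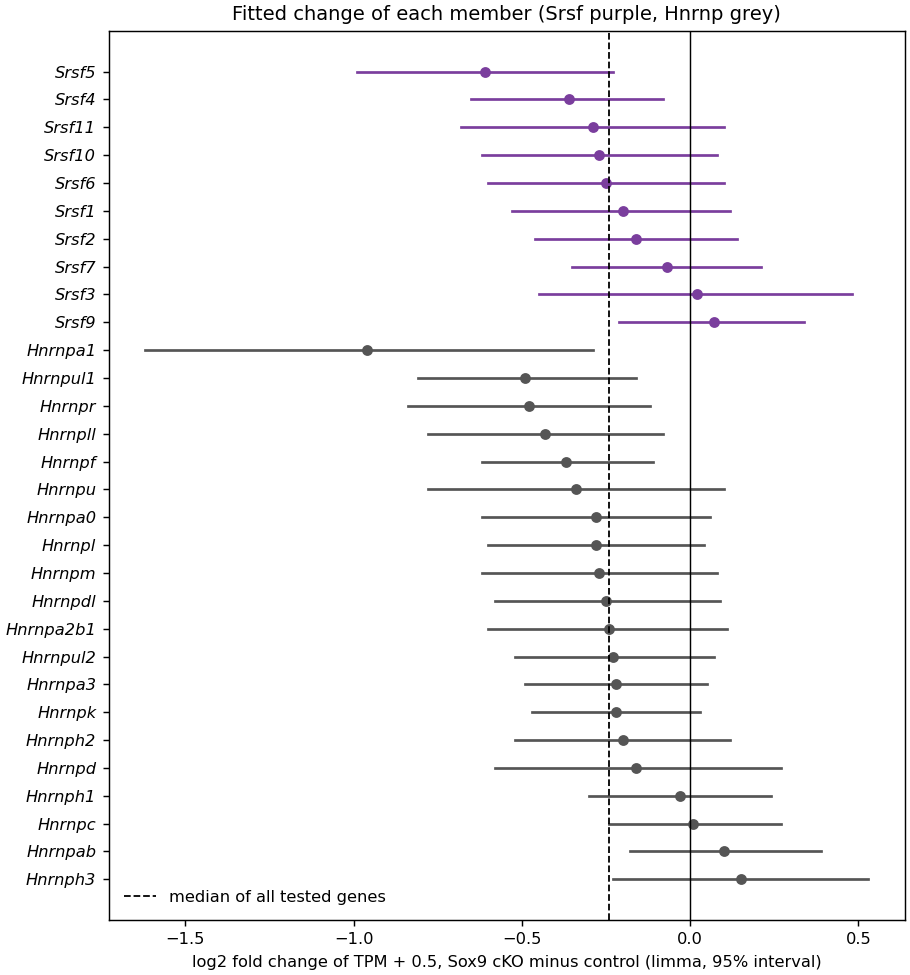
Fitted log2 fold change (TPM + 0.5, Sox9 cKO minus control) of the 30 tested genes with limma's 95% intervals, unadjusted for the number of genes. Points run from -0.96 (Hnrnpa1) to 0.15 (Hnrnph3), and most lie near the dashed line at -0.24, the median of all tested genes.

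The intervals show how large a change the spread among these 6 libraries could have hidden in the main fit. They do not cover the choice of scaling or the unbalanced sexes. For 29 of the 30 genes the 95% interval lay within a 2-fold change in either direction, as it did for 69.6% of all tested genes and 81.5% of those at 5 TPM or more. Hnrnpa1 was the exception. The groups did not overlap, with all Sox9 cKO libraries lower, for 3 of 10 Srsf genes (30%) and 11 of 20 Hnrnp genes (55%), against 33.7% of all tested genes and 28.8% of those at 5 TPM or more. For 0 members were all Sox9 cKO libraries higher, against 3.79% of tested genes.

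Both families are highly expressed in liver. Mean levels over the 6 libraries ran from 20.4 to 148 TPM for Srsf genes and from 5.23 to 222 TPM for Hnrnp genes, with medians of 28 and 41 TPM, against 9.28 TPM for all tested genes. Srsf5 alone held 35.3% of the summed Srsf level in the control livers and 28.8% in the knockout livers. Hnrnpa2b1, Hnrnpk and Hnrnpf together held 46.5% and 45% of the summed Hnrnp level.

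**Figure D2:**
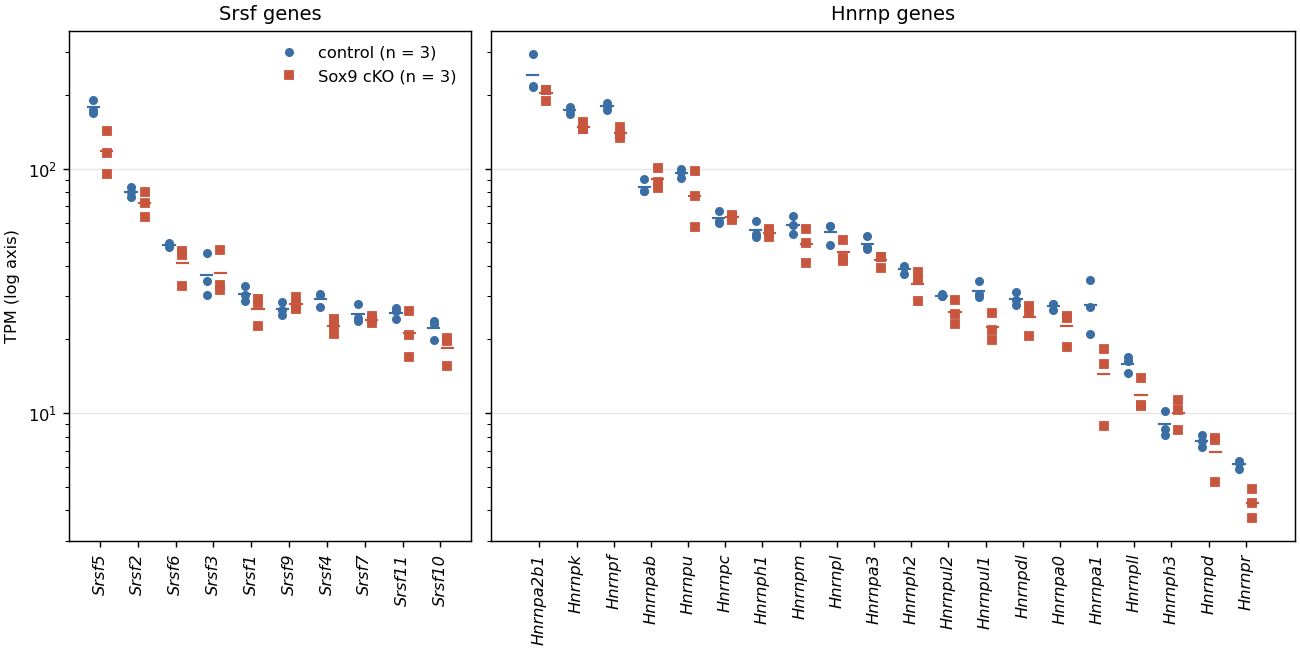
TPM of each tested gene in each library (log axis), ordered by mean level, with circles for the 3 control and squares for the 3 Sox9 cKO libraries and short lines for the group means. Srsf5 leads the SR genes at 148 TPM and Hnrnpa2b1 the hnRNP genes at 222 TPM (means over 6 libraries), and in most genes the groups lie close together.

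Among SR proteins with a pair of RNA recognition motifs, Srsf5, which encodes the splicing enhancer-binding protein also called SRp40, had the lowest fold change. It was at 191, 169 and 174 TPM in control replicates 1 to 3 and at 143, 95.1 and 116 TPM in the knockout livers. Every Sox9 cKO library was below every control, and the Sox9 cKO libraries spread more than the controls. The mean was 178 ± 11.5 TPM in the control livers and 118 ± 24 TPM in the knockout livers (SD, n = 3 each), and the log2 fold change was -0.61 (95% interval -0.99 to -0.23, limma adjusted p = 0.0565). Without Sox9 cKO replicate 1, the highest of the 3, it was -0.76 with an adjusted p of 0.0415, when 4.71% of all tested genes were called lower; over the 18 alternatives the adjusted p ran from 0.0415 to 0.483.

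Srsf4 and Srsf6 are the closest relatives of Srsf5. Srsf4 was at 27.1, 30.3 and 30.6 TPM in the control livers and 21.0, 22.9 and 24.2 TPM in the knockout livers, again without overlap (log2 fold change -0.36, interval -0.65 to -0.08, limma adjusted p = 0.1). Srsf6 was at 49.4, 47.7 and 48.5 TPM in the control livers and 46.2, 33.03 and 44.4 TPM in the knockout livers. Its groups did not overlap either, but Sox9 cKO replicate 2 stood apart from the other libraries (log2 fold change -0.25, interval -0.60 to 0.10, limma adjusted p = 0.302), and without it the log2 fold change was -0.10. Srsf1, the first SR protein to be described, which also acts in mRNA export and translation, was at 30.7 ± 2.17 TPM in the control livers and 26.7 ± 3.44 TPM in the knockout livers, with overlap. Srsf9 had the highest fold change of the family, with 25.2, 26.4 and 28.5 TPM in the control livers and 27.5, 29.7 and 26.6 TPM in the knockout livers, and the groups overlapped (log2 fold change 0.07, interval -0.21 to 0.34, limma adjusted p = 0.745).

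Of the SR proteins with a lone RNA recognition motif, Srsf2, a constituent of nuclear speckles where splicing factors are stored, was at 83.9, 80.3 and 76.8 TPM in the control livers and 80.5, 72.4 and 63.4 TPM in the knockout livers. Sox9 cKO replicate 1 lay within the control range (log2 fold change -0.16, interval -0.46 to 0.14). Srsf3, the smallest SR protein and an adaptor of mRNA export, was at 34.7, 30.3 and 45.3 TPM in the control livers and 31.9, 46.4 and 33.4 TPM in the knockout livers. In each group 1 library stood above the others, and the group means were 36.8 and 37.2 TPM (log2 fold change 0.02, interval -0.45 to 0.48). Srsf7, which adds a zinc knuckle to its recognition motif, was at 25.4 ± 2.2 TPM in the control livers and 24.1 ± 0.832 TPM in the knockout livers, with overlapping groups.

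The SR-like Srsf10, known as a splicing repressor when dephosphorylated, and Srsf11 had log2 fold changes of -0.27 (interval -0.62 to 0.08) and -0.29 (-0.68 to 0.10). Srsf11 was at 24.3, 26.1 and 26.8 TPM in the control livers and 26.0, 16.9 and 20.8 TPM in the knockout livers, so that replicate 2 was again the lowest of the 6 libraries. Sox9 cKO replicate 2 was the lowest of the 6 libraries for 5 of 10 Srsf genes, and the highest for 2, Srsf3 and Srsf9. Its median deviation from the control mean over the Srsf genes was -0.38 on the log2(TPM + 0.5) scale, against -0.10 and -0.13 in Sox9 cKO replicates 1 and 3. Over all tested genes the same deviations were -0.33, -0.19 and -0.22, so replicate 2 was the lowest library for the whole table too. Without it the median log2 fold change of the Srsf genes was -0.15 in place of -0.23.

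**Figure D3:**
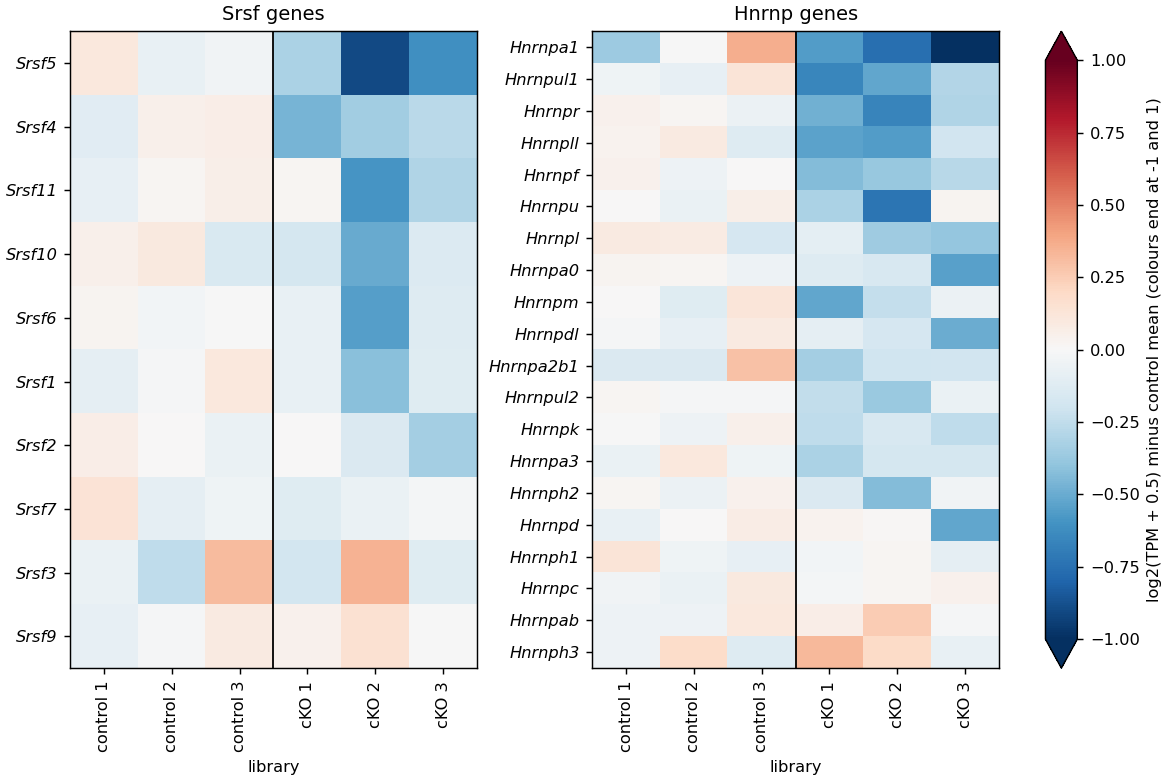
Deviation of log2(TPM + 0.5) from the control mean for each tested gene (rows, ordered by fold change) and library (columns), with blue for lower, red for higher and colours ending at -1 and 1. In the Srsf panel Sox9 cKO replicate 2 is the darkest column, with a median of -0.38. In the Hnrnp panel the 3 Sox9 cKO columns are alike in their medians (-0.25, -0.22 and -0.19), while single genes differ between them.

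The A/B-type hnRNPs hold paired recognition motifs and a glycine-rich tail. Hnrnpa2b1, which also sorts microRNAs and transports mRNA, had the highest level of either family, at 216, 217 and 293 TPM in the control livers and 189, 209 and 210 TPM in the knockout livers. The groups did not overlap, but control replicate 3 lay far above the other controls, and the log2 fold change was -0.24 (interval -0.60 to 0.11, limma adjusted p = 0.316). It was -0.10 without that library. Both fits that account for the sex markers set the Sox9 cKO libraries against that control library alone, and there it was -0.53. Hnrnpa1, which represses exons by binding UAG-containing elements, was at 21, 27.1 and 35 TPM in the control livers and 18.3, 15.9 and 8.88 TPM in the knockout livers. It had the lowest fold change of all 30 genes, at 51.8% of the control mean (log2 fold change -0.96, interval -1.62 to -0.29, limma adjusted p = 0.074), and the groups did not overlap, though the spread within each was wide. Hnrnpa1 is also among the genes whose reads are hardest to assign. Of the 75-base stretches in its GENCODE transcripts, 27% also occur in transcripts of other genes, 13 of these 14 genes being pseudogenes.

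Hnrnpa3 (49.2 ± 3.32 TPM in the control livers, 42.2 ± 2.42 TPM in the knockout livers) and Hnrnpa0 (27.4 ± 0.798 and 22.7 ± 3.5 TPM) had fold changes of -0.22 and -0.28 on the log2 scale. For Hnrnpa3, 26.1% of stretches were shared, with 39 other genes. Hnrnpd, known as AUF1, which speeds the decay of mRNAs with AU-rich elements, lies beside its relative Hnrnpdl on chromosome 5, at 99955935 to 99978938 and 100033577 to 100039664 on the minus strand (mm10). Hnrnpd was at 7.27, 7.7 and 8.11 TPM in the control livers and 7.89, 7.74 and 5.22 TPM in the knockout livers, and Hnrnpdl at 29, 27.7 and 31.1 TPM in the control livers and 27.5, 26 and 20.6 TPM in the knockout livers. In both genes Sox9 cKO replicate 3 was the lowest library, and the Hnrnpd groups overlapped while the Hnrnpdl groups did not. Hnrnpab had a log2 fold change of 0.10 (interval -0.18 to 0.39), with 84.1 ± 5.29 TPM in the control livers and 90.6 ± 8.89 TPM in the knockout livers.

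Hnrnpf and the Hnrnph genes encode proteins that bind runs of G. Hnrnpf was at 185, 174 and 181 TPM in the control livers and 133, 138 and 148 TPM in the knockout livers. The gap between the groups was wider than the range within either, and Sox9 cKO stood at 77.6% of the control mean (log2 fold change -0.37, interval -0.62 to -0.11, limma adjusted p = 0.0766). For this gene 34.2% of stretches were shared with 6 pseudogenes. Hnrnph1 was at 56 ± 4.52 and 54.6 ± 2.02 TPM in the control and knockout livers, and Hnrnph2, its X-linked copy, at 38.8 ± 1.45 and 33.8 ± 4.75 TPM. Hnrnph3 had the highest fold change of the 30 genes, with 8.59, 10.2 and 8.14 TPM in the control livers and 11.3, 10.3 and 8.48 TPM in the knockout livers, and the groups overlapped (log2 fold change 0.15, interval -0.23 to 0.53, limma adjusted p = 0.568).

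Hnrnpk, whose KH domains bind runs of C, was at 173, 168 and 179 TPM in the control livers and 145, 155 and 145 TPM in the knockout livers. The groups did not overlap, and Sox9 cKO stood at 85.7% of the control mean (log2 fold change -0.22, interval -0.47 to 0.03, limma adjusted p = 0.214). Hnrnpc, which binds runs of U and keeps cryptic exons out of mRNA, was at 61.2, 59.8 and 67.3 TPM in the control livers and 61.8, 63.4 and 64.7 TPM in the knockout livers, and all Sox9 cKO libraries lay within the control range (log2 fold change 0.01, interval -0.24 to 0.27). Hnrnpm was at 59 ± 4.87 TPM in the control livers and 49.1 ± 7.86 TPM in the knockout livers, with overlap. Hnrnpr, at 6.16 ± 0.243 and 4.3 ± 0.585 TPM, had the lowest level of the 30 and no overlap (log2 fold change -0.48, interval -0.84 to -0.12, limma adjusted p = 0.088).

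Hnrnpl and Hnrnpll encode relatives that bind CA repeats, and the second is known for switching Ptprc (CD45) exons in lymphocytes. Hnrnpl was at 58.4, 58.2 and 48.7 TPM in the control livers and 51.2, 42.9 and 42 TPM in the knockout livers, with overlap. Hnrnpll was at 16.3, 17 and 14.5 TPM in the control livers and 10.8, 10.7 and 13.9 TPM in the knockout livers, without overlap (log2 fold change -0.43, interval -0.78 to -0.08, limma adjusted p = 0.109). A list of 12 lymphocyte and neutrophil markers, Ptprc among them, summed to 55.9 to 91.5 TPM in the control livers and 8 to 22.1 TPM in the knockout livers. Of its 10 tested genes 5 were called lower, against 8.76% of all tested genes. These were Ptprc, Gzma and the neutrophil genes S100a8, S100a9 and Csf3r. The lymphocyte genes Cd3g, Cd79a, Cd79b, Ms4a1 and Nkg7 were not called. S100a8 and S100a9 had means of 15.6 and 27.5 TPM in the control livers, and 2.06 and 1.92 TPM in the knockout livers. The number called was 2 after median centring or quantile normalization, 1 without control replicate 1, and 0 without control replicate 2 and with a sex-marker term. The shares of all tested genes called lower in these fits were, in the same order, 2.04%, 1.71%, 1.26%, 0.829% and 0.391%. The part of these cells in the Hnrnpll values was not tested.

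The U family comprises large nuclear proteins that bind both RNA and chromatin. Hnrnpul1 was at 30.6, 29.8 and 34.5 TPM in the control livers and 19.9, 21.9 and 25.7 TPM in the knockout livers, with no overlap and 71.1% of the control mean (log2 fold change -0.49, interval -0.81 to -0.16, limma adjusted p = 0.0646). Without Sox9 cKO replicate 3 limma called it (-0.59, adjusted p = 0.0462) beside 8% of all tested genes, and over the 18 alternatives its adjusted p ran from 0.0153 to 0.415. Hnrnpul2 was at 30.2 ± 0.352 TPM in the control livers and 25.8 ± 2.88 TPM in the knockout livers (log2 fold change -0.23, interval -0.52 to 0.07). Hnrnpu, the scaffold attachment factor, was at 96.4, 91.8 and 99.99 TPM in the control livers and 77.1, 57.6 and 97.8 TPM in the knockout livers. One Sox9 cKO library was within the control range and another far below it, which gave the widest interval after those of Hnrnpa1 and Srsf3 (-0.78 to 0.10 around -0.34). Without Sox9 cKO replicate 2 the log2 fold change was -0.14, and without replicate 3 it was -0.52.

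As whole families, the Srsf genes summed to 515, 488 and 508 TPM in the control livers and 448, 379 and 402 TPM in the knockout livers. The Hnrnp genes summed to 1256, 1231 and 1357 TPM in the control livers and 1066, 1088 and 1117 TPM in the knockout livers. The summed levels did not overlap between the groups in either family, and both sums are led by the few abundant genes named above. The ratio of the Srsf sum to the Hnrnp sum was 0.41, 0.397 and 0.374 in the control livers and 0.421, 0.348 and 0.36 in the knockout livers, so the ratios of the groups overlapped. Sums over the members were not tested.

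**Figure D4:**
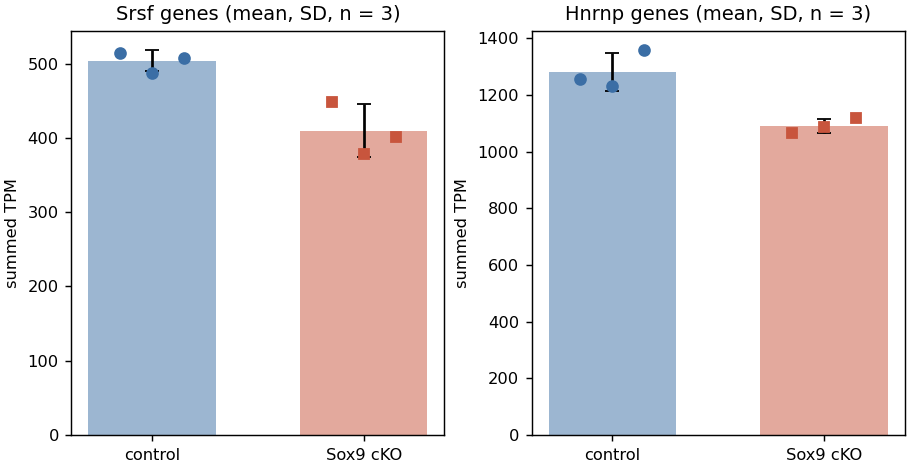
Summed TPM of the 10 Srsf and 20 Hnrnp genes per library (points), with bars for the group mean and error bars for the SD (n = 3). The Srsf means are 504 TPM in the control livers and 410 TPM in the knockout livers, and the Hnrnp means 1281 and 1090 TPM.

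Gene levels in the table add up all transcripts of a gene, productive or not. GENCODE annotates a transcript subject to nonsense-mediated decay for 9 of 10 tested Srsf genes (90%) and 10 of 20 Hnrnp genes (50%), against 28.8% of 11564 tested protein-coding genes. Transcripts with a retained intron are annotated for 8 of 10 Srsf (80%) and 14 of 20 Hnrnp genes (70%), against 59.6%. The balance of productive and decaying forms, through which these genes regulate themselves, was not analysed here.

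Counts for other genes of the splicing machinery stand against 9.59% of all tested genes called in limma and 29.8% with an unadjusted p under 0.05. Of 24 SR-related coactivators 1 was called lower, Thrap3, which joins splicing to transcription, at 39.5 ± 2.55 TPM in the control livers and 27.9 ± 1.01 TPM in the knockout livers (log2 fold change -0.49, SE 0.12, limma adjusted p = 0.0389), and the list median was -0.23. Among the kinases that phosphorylate SR proteins and the receptors that import them, 0 of 15 tested genes were called in limma and 3 had an unadjusted p under 0.05, with a median of -0.22. Tnpo1, a nuclear import receptor of Hnrnpa1 protein, had the smallest p (log2 fold change -0.79, SE 0.23, limma adjusted p = 0.07). Of 20 factors that recognise the splice sites with U1 and U2, 1 was called lower, Sf3b3 (log2 fold change -0.48, SE 0.12, limma adjusted p = 0.046), and the median was -0.19.

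In the core of the spliceosome 0 genes were called in limma, against the same 9.59%, and the counts at an unadjusted p stand against 29.8%. Of 15 Sm and LSm genes 1 had an unadjusted p under 0.05 (median log2 fold change -0.06), and of 25 tri-snRNP and catalytic genes 4 had (median -0.18). The genes with the smallest p were Lsm8 (-0.58, limma adjusted p = 0.0943) and Snrnp200, the helicase that unwinds U4 from U6 RNA (-0.38, limma adjusted p = 0.0791). Among 15 nonsense-mediated decay and exon junction genes 0 were called in limma and 1 had an unadjusted p under 0.05, with a list median of -0.05.

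Of 29 other tested splicing regulators 1 was called lower. This was Rbfox2, which binds GCAUG elements beside exons, at 10.7, 8.56 and 9.92 TPM in the control livers and 5.7, 5.19 and 5.5 TPM in the knockout livers (log2 fold change -0.77, SE 0.14, limma adjusted p = 0.0224). Ptbp1, a repressor that binds polypyrimidine tracts, was at 63.5 ± 2.22 and 46.5 ± 5.94 TPM (limma adjusted p = 0.0643). Of 13 paraspeckle and FET family genes 1 was called lower and 5 had an unadjusted p under 0.05, with a list median of -0.30.

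The pair of cold-inducible RNA-binding proteins had the lowest list median, -1.02. Rbm3 was at 63.1, 62.7 and 109 TPM in the control livers and 32.9, 38.4 and 33.2 TPM in the knockout livers, and it was called lower (log2 fold change -1.11, SE 0.22, limma adjusted p = 0.026). Cirbp was at 17.3, 14.3 and 19 TPM in the control livers and 13.9, 7.74 and 5.82 TPM in the knockout livers, without overlap (log2 fold change -0.93, SE 0.29, limma adjusted p = 0.0812). After median centring or quantile normalization, and likewise without control replicate 1 or 2, 0 genes of these 9 lists were called in limma. The shares of all tested genes called lower in these 4 fits were 2.04%, 1.71%, 1.26% and 0.829%. With a sex-marker term, and likewise with the replicate block, Rbm3 alone was called, when 0.391% and 4.49% of all tested genes were called lower. Rbfox2 also lost its call when control replicate 3 or Sox9 cKO replicate 1 was left out. Thrap3 and Sf3b3 lost their calls without any 1 of the 6 libraries, and Rbm3 also without Sox9 cKO replicate 1 or 3.

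**Figure D5:**
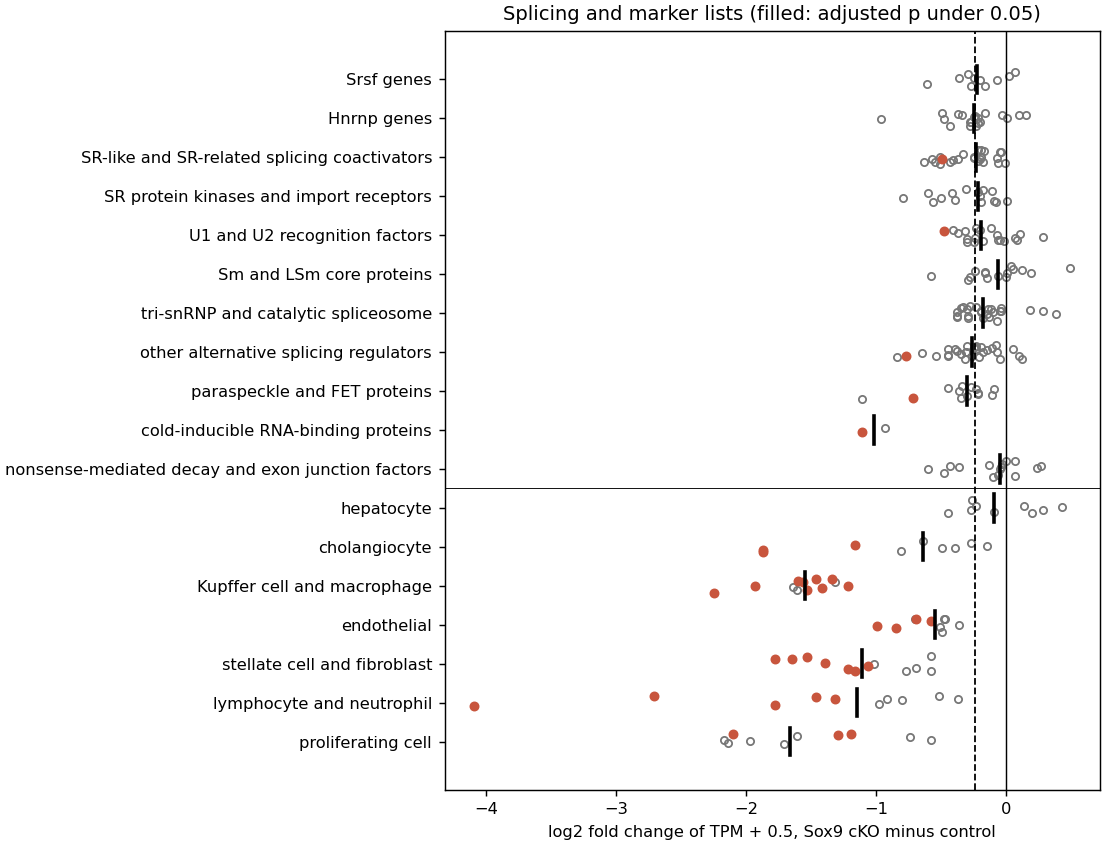
Fitted log2 fold change (TPM + 0.5, Sox9 cKO minus control) of each tested gene in the families, in 9 splicing lists and, below the line, in 7 marker lists; filled points have a limma adjusted p under 0.05, thick bars are list medians and the dashed line is the median of all tested genes, -0.24. Splicing lists other than the cold-inducible pair have medians from -0.30 to -0.05, whereas macrophage and proliferation markers have medians of -1.54 and -1.66.

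Markers of the other cell types of the liver had median log2 fold changes from -1.66 to -0.54 by list. Kupffer cell and macrophage markers summed to 759 to 1294 TPM in the control livers and 258 to 569 TPM in the knockout livers, with 9 of 12 called lower. Stellate cell and fibroblast markers summed to 358 to 389 and 109 to 213 TPM, with 7 of 12 called lower. Endothelial markers summed to 231 to 257 and 128 to 190 TPM (4 of 10 called lower), and proliferation markers to 103 to 209 and 52.3 to 80.3 TPM (3 of 10). Bile duct cell markers summed to 76.8 to 128 and 51.1 to 72.1 TPM (3 of 9 tested called lower). Sox9, the deleted gene, is 1 of these 3, beside Tspan8 and Elf3. Spp1, which led the bile duct sum with means of 74.5 and 51.7 TPM, was not called. Over all tested genes 8.76% were called lower. The list counts depended on the processing, and so did the share of all tested genes called. After median centring 2 macrophage, 3 stellate cell, 2 bile duct, 0 endothelial and 0 proliferation markers were called in limma. After quantile normalization the stellate cell count was 2 and the others were as after centring. Of all tested genes 2.04% and 1.71% were called lower in these 2 fits. Without control replicate 1 or 2 the macrophage count was 2, the stellate cell count 1 and the endothelial count 0. The shares of all tested genes called lower were then 1.26% and 0.829%. With a sex-marker term 0 markers of these 5 lists were called, when 0.391% of all tested genes were called lower. No marker had 0 TPM in all 6 libraries. In whole liver, fewer cells of a type and less RNA per cell cannot be told apart, and the part of these cells in the SR and hnRNP values was not tested.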

How the data were processed

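Stranded mRNA libraries of Trizol-extracted liver RNA were read as single-end 75-nt reads, per the labels' protocols. Per the submitters' processing notes, reads were trimmed with Trim Galore 0.5.0 and cutadapt 1.16, aligned to mm10 with STAR 2.6.0a and quantified with RSEM 1.3.1. Which gene annotation and strand setting RSEM used is not stated there. The authors deposited TPM, with each library summing to 1000000, so sequencing depth is unknown and no counting interval can be given. In 27 rows a date replaces the symbol; they stayed in the fits unnamed.

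All genes whose mean reached 0.5 TPM were fitted as log2(TPM + 0.5) with limma 3.58.1 in R 4.3.3, using a variance trend and no covariate beside group. Tests were two-sided, with Benjamini-Hochberg adjustment over 12539 genes and a threshold of 0.05. Fold changes are on the log2(TPM + 0.5) scale, which understates those of low genes. The members and lists were chosen with earlier results of these data known. Every tested member could be named; values in every library were planned for the 3 most abundant members and the largest rise and fall in each family, and those of further members were chosen after their values were seen. Of each list the called genes, or else that of smallest p, were named; Ptbp1 and Cirbp were named after their values were seen, and 2 genes that this rule selects are not reported here. Positions, transcript types and shared 75-base stretches come from GENCODE vM21 (GRCm38, the assembly of mm10), the same strand only. The fit was tested on simulated data. Figures were drawn with matplotlib 3.10.9.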

Additional observations from a re-analysis of the deposited data

How the results depend on the processing

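Each result was recomputed under 18 alternatives: other pseudocounts and filters, 3 other scalings, no variance trend, array weights, a replicate block, sex-marker fits and leaving out each library. In 15 of them limma called 0 members. The share of all tested genes called lower in these fits ran from 0.391% (sex-marker term) to 9.69% (no variance trend). That range leaves aside the fit without the control libraries with Xist. Where the share was small, as with the sex-marker term or after median centring (2.04%), a count of 0 says little about the families. With array weights limma called 1 Srsf and 4 Hnrnp genes lower (Srsf4, Hnrnpf, Hnrnpll, Hnrnpr and Hnrnpul1). Of all tested genes 18.4% were called lower with these weights. Leaving out 1 library gave 0 to 1 in each family. These were Srsf5 without Sox9 cKO replicate 1 and Hnrnpul1 without Sox9 cKO replicate 3, with 4.71% and 8% of all genes lower. Leaving aside the fit without the 2 control libraries with Xist, 0 members were called higher in any alternative. Of all tested genes, 0.167% (sex-marker term) to 2.01% (array weights) were called higher there, so this count says little about the families. The family medians were 0.05 (Srsf) and 0.03 (Hnrnp) after median centring, and -0.07 and -0.12 after quantile normalization. All tested genes had medians of 0.04 and 0.03 in these fits. The family medians were -0.17 and -0.19 after rescaling without the 50 most abundant genes, and -0.10 and -0.22 with array weights. Leaving out 1 library gave -0.29 to -0.15 and -0.26 to -0.22.

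Over all genes, 1099 were lower and 103 higher. Lower genes numbered 430 with a filter of 5 TPM, 256 after median centring, 725 after rescaling, 215 after quantile normalization, 2312 (and 252 higher) with array weights, 563 with the replicate block, 49 (21 higher) with the sex-marker term, 18 (9 higher) without the 2 control libraries with Xist, and 104 to 1003 (32 to 107 higher) without 1 library; control replicate 2 gave the lowest counts. Without the Xist libraries, the lone control is assumed to vary like the other group. Replicate numbers mark no shared animal or day in the labels, and deviations of same-numbered samples had correlations of -0.0446, 0.0035 and -0.0269. No sample correlated best with its own number, and the block called 0 members.

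The sign of a member's fold change reversed in 35 of 540 refits; none of these values passed the test. After median centring Hnrnpa2b1 and Hnrnpdl were at 0.03, Hnrnpa3, Hnrnpk and Hnrnpul2 at 0.05, Hnrnpd at 0.12, Hnrnph1 at 0.24, Hnrnph2 at 0.07, Hnrnpm at 0.0027, Srsf1 at 0.07, Srsf10 at 0.0045, Srsf2 at 0.11, Srsf6 at 0.03 and Srsf7 at 0.21. After quantile normalization Hnrnpd was at 0.14, Hnrnph1 at 0.09 and Srsf7 at 0.11, and after rescaling Hnrnph1 was at 0.02. In both sex-marker fits control replicate 3 alone sets the control level. There Hnrnpc was at -0.09, Hnrnph1 at 0.05, Srsf3 at -0.30 and Srsf9 at -0.03. With array weights Srsf3 was at -0.00045. Leaving out 1 library gave -0.02 to 0.06 for Hnrnpc, -0.25 to 0.02 for Hnrnpd, -0.07 to 0.03 for Hnrnph1 and -0.15 to 0.18 for Srsf3. The cause was not tested.

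Unknown depth and 3 libraries a group limit precision. Reads of near-identical pseudogenes could not be separated in gene-level TPM. For Srsf5, 7.32% of 75-base stretches were shared, with 1 pseudogene. Hnrnpm and Hnrnpul2 overlap a protein-coding gene annotated on the same strand, and 13% and 4.05% of their stretches were shared with other genes. The unstated strand setting leaves values uncertain where a member overlaps a gene annotated on the opposite strand. These members are Srsf1, Srsf2, Srsf4, Hnrnpab, Hnrnpd, Hnrnpf, Hnrnph3, Hnrnpk, Hnrnpl, Hnrnpll, Hnrnpr and Hnrnpu.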
